A study of Mus musculus with 2 samples.

Results

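Folr2 macrophages were examined as a small set of C1q-expressing macrophages in metastatic lungs of female Balb/c mice, which had received labelling-4T1 cells, a mouse mammary carcinoma line, into the blood 7 days before. Immune cells were sorted from the dissociated tissue into 1 niche library and 1 distal library, and their RNA was measured with a droplet-based 3′ single-cell kit. All lungs carried tumour cells, so neither library came from a tumour-free lung, and neither the sort gates nor the number of animals is known here. In this labelling system, as background, a fluorescent protein released by the tumour cells enters cells nearby, which allows the niche to be sorted apart. Barcodes with 200 or more genes were kept if no more than 10% of their UMIs were mitochondrial, a UMI (unique molecular identifier) standing for 1 captured RNA molecule. A kept barcode was a member when it had at least 10 UMIs summed over C1qa, C1qb, C1qc and Ms4a7, a UMI in at least 3 of the 6 genes Folr2, Gpr34, Mgl2, Cxcl13, Pla2g2d and Cd163, and a UMI in fewer than 3 of 5 proliferation genes. This gave 95 members among 6621 kept cells, 57 in the niche library and 38 in the distal library.

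Interstitial macrophages live in the tissue between the air spaces and the vessels of the lung, and a resident subset of them is marked by the folate receptor FOLR2 together with LYVE1, MRC1 and CD163. Such cells sit along vessels in many organs, take up debris and haemoglobin, and release chemokines. C1q, the starter protein of the classical complement pathway, is made by most tissue macrophages, so C1q alone does not separate residents from macrophages that arose recently from monocytes.

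The niche library held 38036915 UMIs on 3242 barcodes and the distal library 22323465 on 3945, with a median of 11197 UMIs in kept niche cells and 5794.5 in kept distal cells. Niche members had a median of 9539 UMIs (range 1842 to 34774) and 726646 UMIs in all over the gene identifiers that both libraries share. Distal members had a median of 6238 UMIs (range 1498 to 15995) and 267938 in all. The cells most like the members were the other C1q macrophages, which met the C1q criterion and had fewer than 3 of the 6 genes and fewer than 3 proliferation genes. There were 1763 of these in the niche library and 374 in the distal library, with medians of 12168 and 7699.5 UMIs. Each group was 1 library, so replicates and tests are lacking. Differences are those between the libraries sequenced, and the 95% intervals printed reflect counting error alone. The libraries shared 4 barcode sequences, of which 0 were members.

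Of the 6 genes that chose the members, Folr2 (ENSMUSG00000032725), which encodes a folate receptor, lies on the minus strand at chr7:101839988-101857194 in GRCm38. It had a UMI in 54 of 57 niche members and 30 of 38 distal members. Mgl2, a galactose-binding lectin, was also found in most members, 54 of the niche cells and 33 of the distal cells. Gpr34, a lysophosphatidylserine receptor, had UMIs in 42 niche and 26 distal members. Cd163, the haemoglobin scavenger receptor, had UMIs in 35 niche and 15 distal members, and Pla2g2d, a secreted phospholipase, in 23 and 25. Cxcl13, the chemokine that draws B cells, was found in 14 niche and 16 distal members.

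The levels of these genes differed widely between single members. Folr2 ranged over niche members from 0 to 20.6 UMIs per 10000 UMIs of the cell, with a median of 3.81, and over distal members from 0 to 31.8, with a median of 3.27. Cxcl13 reached 205 UMIs per 10000 in 1 niche member and 138 in 1 distal member, while its median was 0 in both libraries. The top niche cell held 214 of the 357 Cxcl13 UMIs of the niche members, and the top distal cell 94 of the 204 of the distal members. A Cxcl13 level summed over cells therefore reflected a few cells in either library. These 6 genes are given as a description, since they set who is a member. In T cell droplets, which should lack them, 1 of 41 had a Folr2 UMI and 1 a Gpr34 UMI in the niche library, at a median of 3025 UMIs per droplet. Among 398 such droplets of the distal library 0 had a Folr2 UMI and 16 had a Gpr34 UMI, at a median of 3323.5 UMIs. Mgl2 had a UMI in 4 of 47 niche and 2 of 245 distal B cell droplets, at medians of 2081 and 2730 UMIs. C1qa, part of the C1q criterion, had a UMI in 19.5% of the niche and 2.51% of the distal T cell droplets. T cell droplets were themselves chosen to have few C1q and Ms4a7 UMIs. That choice limits the C1qa shares, so they cannot measure the C1q background.

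**Figure D1:**
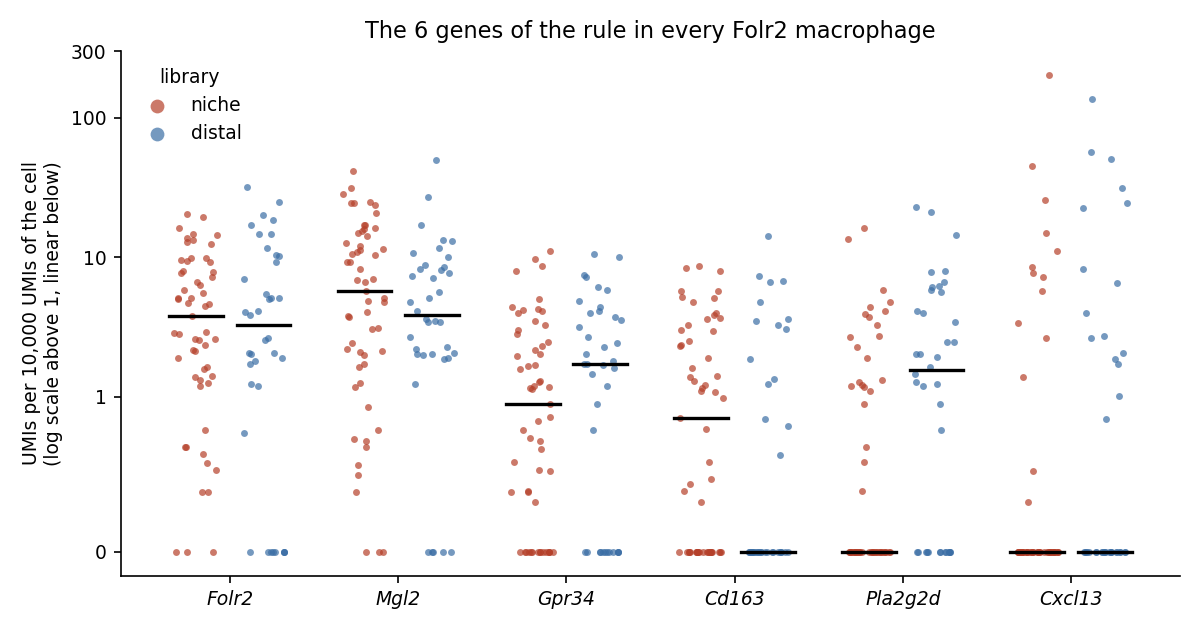
UMIs per 10,000 UMIs of the cell for the 6 selecting genes, 1 point per member, niche (57 cells) left of distal (38 cells), with a black bar at the median of each library. Folr2 and Mgl2 are found in most members, whereas Cxcl13 is at 0 in most and reaches 205 in 1 niche cell and 138 in 1 distal cell.

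The values on either side of the threshold of 3 genes show what it separated. Among non-cycling C1q macrophages, 25 niche cells had exactly 3 of the 6 genes and 94 had exactly 2, and 19 and 47 distal cells did. Cbr2, a carbonyl reductase that marks resident macrophages and was not used in the choice, was at 136 CPM (counts per 1000000 UMIs of the summed cells) in niche cells with 3 genes and 1.77 CPM in those with 2. In distal cells the same values were 420 and 69.0 CPM. The niche cells just inside were shallower than those just outside, with medians of 13702 and 17138 UMIs. In the distal library the cells just inside had a median of 5319 UMIs and those just outside 6216. Niche members with 4 genes had a median of 8632 UMIs and those with 5 or 6 had 8313, with Cbr2 at 304 and 342 CPM. For distal members these values were 6236.5 and 8124 UMIs, and 339 and 452 CPM. Niche members with exactly 3 genes were thus deeper than other niche members and lower in Cbr2. The part of depth in passing the threshold was not tested.

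**Figure D2:**
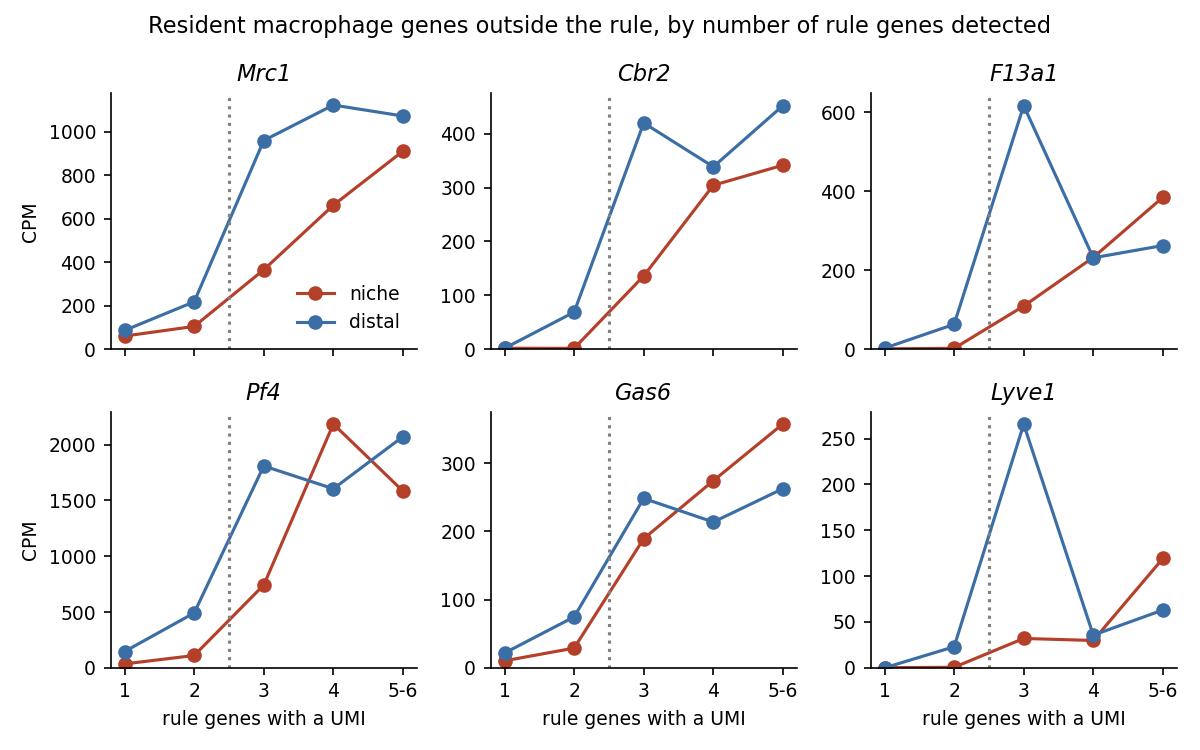
CPM of 6 resident macrophage genes outside the rule in non-cycling C1q macrophages grouped by how many of the 6 selecting genes had a UMI (1 to 4, and 5 or 6 together), niche and distal. The dotted line is the threshold, with members to its right, and in both libraries all 6 genes were higher at 3 genes than at 2.

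The promoters of 4 genes that stood among the highest in members of both libraries are shown because they hold the motifs searched for. They come from RefSeq (GRCm38.p6), run from 250 bases before to 50 bases after the annotated start, and are printed 5′ to 3′ on the gene's strand. Capitals mark GAGGAAG, the core bound by the myeloid factor PU.1, and TGCTGAC, a half-site bound by MAF factors, each searched on both strands, so that CTTCCTC and GTCAGCA are their reverse forms. Cbr2 lies on the minus strand at chr11:120731972-120732271, F13a1 on the minus strand at chr13:37050195-37050494, Pf4 on the plus strand at chr5:90772185-90772484 and Mrc1 on the plus strand at chr2:14229164-14229463.
Cbr2: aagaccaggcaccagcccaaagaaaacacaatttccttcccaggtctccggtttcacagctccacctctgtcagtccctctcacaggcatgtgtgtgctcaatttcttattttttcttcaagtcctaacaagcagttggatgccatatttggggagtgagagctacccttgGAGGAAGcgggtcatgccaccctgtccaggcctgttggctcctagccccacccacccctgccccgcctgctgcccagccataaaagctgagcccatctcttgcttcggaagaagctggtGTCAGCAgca
F13a1: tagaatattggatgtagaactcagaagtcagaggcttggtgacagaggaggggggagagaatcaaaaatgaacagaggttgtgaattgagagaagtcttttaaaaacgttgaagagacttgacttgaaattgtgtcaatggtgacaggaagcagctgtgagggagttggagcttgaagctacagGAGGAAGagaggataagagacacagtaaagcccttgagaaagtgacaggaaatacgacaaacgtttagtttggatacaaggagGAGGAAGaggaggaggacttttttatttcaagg
Pf4: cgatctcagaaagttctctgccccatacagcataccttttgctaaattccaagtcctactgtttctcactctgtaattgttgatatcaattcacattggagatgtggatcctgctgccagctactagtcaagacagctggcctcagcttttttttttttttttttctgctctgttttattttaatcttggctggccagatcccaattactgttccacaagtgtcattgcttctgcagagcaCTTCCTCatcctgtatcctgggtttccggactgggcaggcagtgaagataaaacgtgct
Mrc1: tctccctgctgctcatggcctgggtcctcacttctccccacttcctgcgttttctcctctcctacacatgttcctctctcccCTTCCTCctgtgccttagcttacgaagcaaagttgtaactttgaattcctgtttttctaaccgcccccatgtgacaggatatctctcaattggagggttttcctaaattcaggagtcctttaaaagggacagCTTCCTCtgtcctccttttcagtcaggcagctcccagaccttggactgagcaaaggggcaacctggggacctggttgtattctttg
Of 26 genes looked up, which were the 6 selecting genes and the 20 highest genes over the other macrophages, 20 had an entry, with 23 promoters. GAGGAAG was in 10 of these 23 (43.5%), which belong to 9 genes, and in 13.6% of all 32851 promoters of the same length. TGCTGAC was in 1 of the 23 (4.35%), that of Cbr2, and in 4.67% of all promoters. A match is only a run of letters, and no binding was measured.

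Members were set against the other C1q macrophages of the same library first, which describes what else the selected cells held. In the niche library, 391 genes were higher in members with an interval beyond 1.5-fold (3.53% of 11074 genes with at least 20 UMIs) and 141 were lower (1.27%). In the distal library 266 were higher (3.19% of 8349) and 136 were lower (1.63%). Of the genes beyond 1.5-fold, 238 had the same direction in both libraries and 2 had opposite directions. The members were chosen on expression in these same cells, so these counts describe the selection and were not tested.

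Genes of tissue-resident macrophages stood high in the members. Of 26 listed genes, 24 had at least 20 UMIs in the niche comparison, of which 22 lay above 0 (55.2% of all genes did), 21 of them beyond 1.5-fold, and the median log2 ratio was 3.35. In the distal library 24 of 26 lay above 0, 22 beyond 1.5-fold, with a median of 3.0. Over all genes the median was 0.07 in the niche library and 0.06 in the distal library.

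Lyve1, the hyaluronan receptor of perivascular macrophages, had 39 UMIs in 14 niche members (53.7 CPM) and 6 UMIs in the other niche C1q macrophages (0.27 CPM), a log2 ratio of 7.55 (6.39 to 9.17). Among distal cells it had 39 UMIs in 10 members (146 CPM) and 8 in the others (2.55 CPM), a log2 ratio of 5.77 (4.72 to 7.14). Most members therefore had no Lyve1 UMI, and members held 37.9% of the Lyve1 UMIs of all kept niche cells and 36.8% of those of all kept distal cells. Cbr2 had 165 UMIs in niche members and 30 in the others (227 and 1.34 CPM, log2 ratio 7.38), and 111 and 30 in the distal library (414 and 9.56 CPM, 5.42). F13a1, the transglutaminase of clotting factor XIII, was at 208 CPM in niche members and 1.83 CPM in the others, and at 411 and 11.2 CPM in the distal library. Cd209f, a C-type lectin, had 35 UMIs in 6 niche members and none in the 1763 other niche C1q macrophages, at least 359-fold higher when 3 UMIs over the group are taken as the floor. Among distal cells it had 31 UMIs in 8 members and 4 UMIs in the others.

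Pf4, a platelet-type chemokine that resident macrophages also make, had a UMI in 56 of 57 niche members and 37 of 38 distal members. Its level was 1288 CPM in niche members and 25.4 CPM in the other niche C1q macrophages (log2 ratio 5.66, 5.51 to 5.82). In the distal library the levels were 1859 and 116 CPM (4.0, 3.80 to 4.2). Of all Pf4 UMIs in kept cells, the members held 42.5% in the niche library and 42.6% in the distal library, although they were 1.85% and 1.07% of the cells. Mrc1, the mannose receptor, was at 572 CPM in niche members against 35.1 CPM in the others, and at 1034 CPM in distal members against 73.6 CPM. Members held 20.1% of Mrc1 UMIs in the niche library but 2.76% in the distal library. Mrc1 is also a gene of alveolar macrophages.

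Single scavenging and growth factor genes stood high in the members of both libraries, but the medians of both lists were not above 0 in the distal library. Of 19 scavenger and phagocytic receptor genes 14 were above and 5 below 0 in the niche library, 8 higher and 1 lower beyond 1.5-fold (median 0.37). In the distal library 9 of 19 were above and 10 below 0, 6 higher and 1 lower (median -0.02). Of the growth and matrix ligands 12 of 19 were above 0 in the niche library, 5 higher and 3 lower beyond 1.5-fold, with a median of 0.12, or 0.30 with a gene at 0 in 1 group set at its bound. For the distal library this was 6 of 17, 5 higher and 4 lower, with medians of -0.43 and -0.24. Over all genes 55.2% lay above 0 in the niche and 53.9% in the distal library. Beyond 1.5-fold 3.53% of all genes were higher and 1.27% lower in the niche, and 3.19% and 1.63% in the distal library. Gas6, the bridge that lets macrophages bind dying cells, was at 252 CPM in niche members and 6.84 CPM in the others, and at 246 and 18.5 CPM in the distal library. Stab1, a scavenger receptor, had log2 ratios of 3.38 in the niche and 3.29 in the distal library. Igf1, insulin-like growth factor, had 3.85 and 3.27, and Maf, a transcription factor of resident macrophages, 2.57 and 2.78. Selenop, a selenium carrier, was in all 57 niche and all 38 distal members, with log2 ratios of 2.36 and 2.60. Il10, an anti-inflammatory cytokine, had 38 UMIs in 7 niche members and 19 in 6 distal members, with ratios of 4.47 and 3.55. Not every listed resident gene went this way. Timd4, a phosphatidylserine receptor, had 17 UMIs in niche members and a log2 ratio of -1.20, and 19 UMIs in distal members with a ratio of -0.29, neither beyond the 1.5-fold bound.

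**Figure D3:**
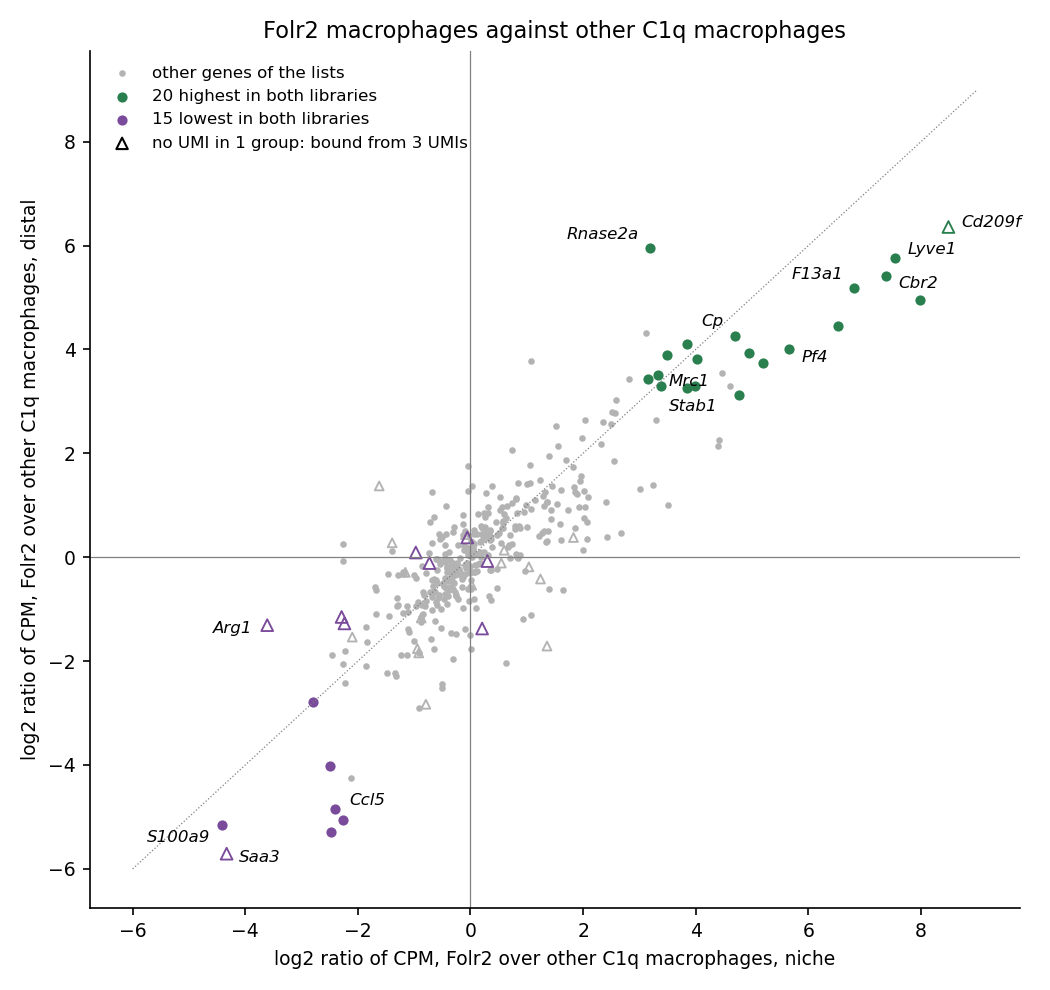
Log2 ratio of CPM in Folr2 macrophages over other C1q macrophages, niche on the horizontal axis and distal on the vertical axis, 1 point per gene, without the 6 selecting genes. Triangles mark genes with no UMI in 1 group, placed at the bound that 3 UMIs give. The 20 highest genes, such as Lyve1 at 7.55 and 5.77 and Pf4 at 5.66 and 4.0, lie far above 0 in both libraries.

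Chemokine genes also stood high in the members. In the niche library 13 of 21 measured chemokine genes were higher beyond 1.5-fold and 3 were lower (median log2 ratio 1.86), and in the distal library 9 of 19 were higher and 3 lower (median 0.50). Over all genes 3.53% were higher and 1.27% lower beyond 1.5-fold in the niche library, and 3.19% and 1.63% in the distal library. The list holds Cxcl13, 1 of the selecting genes. Ccl8, a monocyte-attracting chemokine, was at 4163 CPM in niche members and 726 CPM in the others, and at 4102 and 589 CPM in the distal library. Single niche members ranged from 0 to 460 Ccl8 UMIs per 10000, with a median of 12.8. Distal members ranged from 0 to 191, with a median of 18.8. The monocyte attractants Ccl7 (1420 against 160 CPM in the niche, 1265 against 117 CPM in the distal library), Ccl2 (1034 against 262, 1123 against 230) and Ccl12 (2551 against 626, 3206 against 512) went the same way. Cxcl9, which attracts T cells through CXCR3, was lower, at 2257 CPM in niche members and 4909 CPM in the others, and at 537 and 1976 CPM in the distal library. Ccl5, another T cell attractant, was at 270 and 1438 CPM in the niche library and at 33.6 and 1021 CPM in the distal library. Immediate early and stress genes, which tissue dissociation can raise, were also higher in members, 14 of 22 beyond 1.5-fold in the niche (median 1.32) and 6 of 22 in the distal library (median 0.48), and their part in the chemokine difference was not tested.

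Complement, iron and lipid mediator genes were higher in the members in part. Of the complement list 7 of 15 measured genes were higher beyond 1.5-fold in the niche library and 2 lower, Cfb and Itgax, and in the distal library 8 of 16 were higher and 1, Itgax, lower, with medians of 0.74 and 0.79. Over all genes 3.53% were higher in the niche and 3.19% in the distal library, as given above. C1qa and C1qc were part of the C1q criterion. Of 13 iron and haem genes 5 were higher in the niche library and 6 in the distal library, among them Cp, the ferroxidase ceruloplasmin (4.70 and 4.25), and Trf, transferrin (1.94 and 1.48). Of the arachidonate enzymes 7 of 14 were higher and 2 lower in the niche library, and 5 of 14 higher and 1 lower in the distal library. Hpgd, which breaks down prostaglandins, had ratios of 4.42 and 2.25, and Ltc4s, which makes leukotriene C4, 4.39 and 2.13. That list holds the selecting gene Pla2g2d.

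Glycolysis and interferon gamma genes lay on the other side. Of 20 measured hypoxia and glycolysis genes 19 were below 0 in either library, with medians of -0.64 in the niche and -0.60 in the distal library, and 8 and 3 were beyond 1.5-fold. Pkm, pyruvate kinase, was at 396 CPM in niche members and 776 CPM in the others, and at 235 and 456 CPM in the distal library. Interferon gamma genes were below 0 for 23 of 25 in the niche library (median -0.66, 7 beyond 1.5-fold) and 15 of 24 in the distal library (median -0.22, 1 beyond), where 46.1% of all genes lay below 0. Antigen presentation differed less. H2-Aa, an MHC class II chain, was at 7382 CPM in niche members and 7665 CPM in the others, and at 9129 and 9865 CPM in the distal library. The median of the MHC class II list was -0.19 and -0.26, with 1 of 12 genes lower beyond 1.5-fold in each library.

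Of the 15 genes lowest in members against the others, 6 had member UMIs in both libraries. The amyloid gene Saa3 had 2 UMIs in niche members and 1548 in the other niche C1q macrophages. Among distal cells it had 0 UMIs in members and 1836 in the others, at least 52.3-fold lower. Ly6a, a surface antigen raised by interferon, was at 274 CPM in niche members and 1529 CPM in the others, and at 22.4 and 955 CPM in the distal library. For 5 of the 15, Prss30, Thbs1, Lrg1, Areg and Cxcr2, the members had no UMI in either library, and the floor of 3 UMIs allowed no bound above 2.59-fold, that of Lrg1 in the distal library. The neutrophil genes S100a8 and S100a9 were lower as summed, with log2 ratios of -2.27 and -4.41 in the niche and -5.05 and -5.16 in the distal library. Once droplets with 3 or more T cell, B cell or neutrophil markers were left out of both groups, S100a9 had 0.90 in the niche and 0.99 in the distal library, and S100a8 0.03 in the distal library. S100a8 and S100a9 are themselves among the neutrophil markers of that filter. The filter therefore partly sets these values, and they are no independent check.

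Markers of other cell types took small shares of the members' UMIs, lower than in the other C1q macrophages for monocyte, T cell and neutrophil markers and higher for B cell and epithelial markers. Classical monocyte markers (11 genes) took 0.041% of niche member UMIs against 0.141% in the other niche C1q macrophages, and 0.031% of distal member UMIs against 0.165%. Vcan, a monocyte proteoglycan, was at 0 in both member groups, but of the 11 markers only 3 were at 0 in niche members and 5 in distal members. Ccr2, a chemokine receptor gene of monocytes, had 19 UMIs in the 14 niche members with a Lyve1 UMI (100 CPM) and 84 in the 43 without (156 CPM). The log2 ratio was -0.62, with an interval that held 0 (-1.45 to 0.09). In the distal library Ccr2 had 0 UMIs in the 10 members with a Lyve1 UMI and 24 in the 28 without (111 CPM). Ccr2 was nonetheless lower in members than in the other C1q macrophages beyond 1.5-fold in both libraries. At least 3 of the 5 core monocyte markers were found in 8 of 57 niche members and 845 of 1763 others, and in 1 of 38 distal members and 128 of 374 others. Thinned to 3000 UMIs per cell, these shares were 5.36% of niche members and 21.1% of the others, and 3.03% and 19.8% in the distal library. Alveolar macrophage markers (15 genes) took 0.007% of niche member UMIs against 0.006% in the other niche C1q macrophages, and 0.046% of distal member UMIs against 0.022%, with 8 of 15 at 0 in niche members and 4 of 15 in distal members. Of the 123 alveolar marker UMIs of distal members 64 lay in 1 cell, so the higher distal share rested largely on that cell. Siglecf, the defining alveolar marker, had 0 UMIs in niche members and 3 in distal members, and Marco was at 0 in both. Of 9 alveolar markers measured in the distal library 7 were above 0, 2 of them beyond 1.5-fold (median log2 ratio 1.12). B cell markers took 0.035% of niche member UMIs against 0.019% in the others, and 0.064% of distal member UMIs against 0.039%, of which Ighm gave 172 of 256 UMIs, in 50 niche members, and 104 of 173, in 28 distal members. Epithelial and carcinoma markers took 0.0086% against 0.0028% in the niche library and 0.015% against 0.0062% in the distal library. A single cell held 31 of the 63 epithelial marker UMIs of niche members, and another 11 of the 39 of distal members. T and NK cell markers took 0.0078% against 0.016% and 0.015% against 0.021%, and neutrophil markers 0.012% against 0.055% and 0.012% against 0.122%. The part of these markers in the differences between members and others was not tested.

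The share of Folr2 macrophages depended on the denominator. Of all kept cells they were 1.85% in the niche library (57 of 3081, Clopper-Pearson interval 1.40 to 2.39) and 1.07% in the distal library (38 of 3540, 0.761 to 1.47), a ratio of 1.72 (1.12 to 2.67). After every cell was thinned to 3000 UMIs, which leaves out cells with fewer, the shares were 1.05% (27 of 2564) and 0.813% (21 of 2584), a ratio of 1.30 (0.706 to 2.41). Of C1q macrophages, however, members were 2.59% in the niche library (57 of 2200) and 8.09% in the distal library (38 of 470), a ratio of 0.320 (0.209 to 0.497), and 0.291 (0.159 to 0.542) after thinning. The sort gates, which can set both denominators, are not known here.

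**Figure D4:**
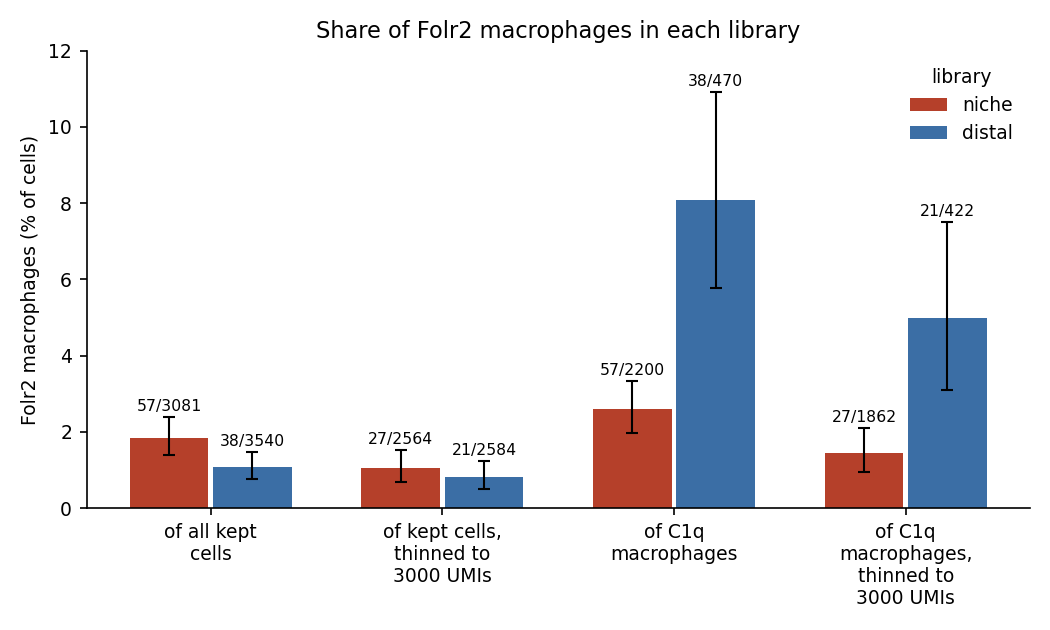
Share of Folr2 macrophages in percent, niche left of distal, over all kept cells and over C1q macrophages, each with all UMIs and with every cell thinned to 3000 UMIs. Bars are the shares, and black lines are their 95% Clopper-Pearson intervals. The niche is higher over all kept cells (1.85% against 1.07%) and lower over C1q macrophages (2.59% against 8.09%).

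Some cells that met the C1q and 3-gene criteria were left out as cycling. There were 20 of 77 such cells in the niche library (26.0%, 16.6 to 37.2) and 4 of 42 in the distal library (9.52%, 2.66 to 22.6), a ratio of 2.73 (0.914 to 11). At 3000 UMIs per cell 1 of 28 and 1 of 22 were cycling, a ratio of 0.786 (0.010 to 61.7). Too few cells then met the cycling criterion for the libraries to be compared at equal depth. Of C1q cells with fewer than 3 of the 6 genes, 360 of 2123 were cycling in the niche library (17.0%) and 54 of 428 in the distal library (12.6%), a ratio of 1.34 (1.01 to 1.82) with all UMIs.

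Niche and distal members were then compared with each other. Of 5219 genes with at least 20 UMIs over both groups, 91 were higher in the niche with an interval beyond 1.5-fold (1.74%) and 65 were lower (1.25%). The median over all genes was 0.03. Scaled by the median ratio of genes instead, the split was 76 higher and 74 lower. Some genes moved the same way, by a median log2 ratio of 1 or more, over T cell, B cell and neutrophil droplets. Others share exons with a gene that 1 library does not list. Without genes of either kind the split was 37 higher and 45 lower. The matrices were made with different software versions and gene lists, so counting and group cannot be told apart. Such genes are called uncertain from here on.

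Resident macrophage genes were lower in niche members as a group. Of 25 measured, 23 were below 0 and 2 above, with a median of -0.85, and 8 were lower beyond 1.5-fold and 0 higher. Over all genes 47.3% lay below 0. The median moved to -0.39 with every cell thinned to 3000 UMIs and to -0.33 when 4 of the 6 genes were required. In the other C1q macrophages 21 of 22 were below 0 (51.9% of all genes were), with a median of -1.26 and 13 lower beyond 1.5-fold (3.07% of all genes were). Of the 8 genes, F13a1, Hpgd and Mrc1 are uncertain, with median log2 ratios of -1.74, -1.49 and -3.15 in unrelated droplets. Clec10a, a galactose-binding lectin, had 59 UMIs in 25 niche members (81.2 CPM) and 79 UMIs in 23 distal members (295 CPM), a log2 ratio of -1.86 (-2.37 to -1.36). Selenop was at 1518 CPM in niche members and 3217 CPM in distal members (-1.08, -1.21 to -0.95). Fcna, a ficolin that can start complement activation, had 26 UMIs in 15 niche members and 34 in 12 distal members (-1.82, -2.62 to -1.05). Pf4 was at 1288 and 1859 CPM (-0.53, -0.69 to -0.37), and Gas6 at 252 and 246 CPM (0.03, -0.38 to 0.46), so neither passed the 1.5-fold bound.

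Other named genes that were lower in the niche belonged to several functions. Klf4, a transcription factor and immediate early gene, had 58 UMIs in 19 niche members and 65 in 22 distal members (79.8 and 243 CPM, log2 ratio -1.60). Ncoa4, the receptor that takes ferritin into autophagy, had 26 UMIs in 18 niche members and 31 in 19 distal members (-1.69). C4b, a complement component, was at 59.2 and 224 CPM (-1.92, and -0.31 when 4 of the 6 genes were required). The histidine-degrading enzyme Hal had 20 UMIs in 11 niche members and 69 in 12 distal members (-3.20), and the lectin Cd209g 12 in 5 and 39 in 7 (-3.10). Fxyd2, Ecm1 and Slco2b1, a regulator of the sodium pump, a matrix protein and an organic anion carrier, had ratios of -1.75, -1.66 and -1.54, and with 4 of the 6 genes required that of Fxyd2 was -0.91 and that of Ecm1 -0.18. Pla2g2d, at 89.5 and 377 CPM (-2.07), was among the 15 lowest but is a selecting gene.

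A few of these differences came from single cells. Retnla, an alternative-activation protein, had 223 UMIs in 5 niche members and 673 in 6 distal members (307 and 2512 CPM, -3.03). Of the niche UMIs 96.4% lay in 1 cell, and without the top distal cell the ratio was -2.39. Rnase2a, a secreted ribonuclease, had 26 UMIs in 7 niche members and 34 in 5 distal members, 29 of them in 1 cell. Without that cell its log2 ratio was 0.80 in place of -1.82. S100a6, a calcium-binding protein, was at 175 and 493 CPM (-1.49), but had a ratio of 0.46 when 4 of the 6 genes were required. Without the top cell an interval beyond 1.5-fold was kept by 10 of the 15 highest and 12 of the 15 lowest named genes.

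On the higher side, the fatty acid-binding protein gene Fabp5 had 284 UMIs in 20 niche members (391 CPM) and 5 UMIs in 3 distal members (18.7 CPM), a log2 ratio of 4.25 (3.15 to 6.02). The top niche cell held 154 of these UMIs, and without it the ratio was 3.17. Spp1, osteopontin, had 342 UMIs in 14 niche members (471 CPM) and 23 in 5 distal members (85.8 CPM), with a ratio of 2.43. Its top niche cell held 59.4% of the niche UMIs, and the ratio was 1.19 without it and 0.95 without mixed droplets. Mmp12, a macrophage elastase, had 87 UMIs in 5 niche members and 3 UMIs in 1 distal member (3.20). These genes were thus read from a minority of the members. At least 3 of 5 lipid-laden macrophage markers were found in 13 of 57 niche and 3 of 38 distal members, and after thinning to 3000 UMIs those shares were 5.36% and 6.06%. In the other C1q macrophages Fabp5 had a niche over distal ratio of 0.68, Spp1 0.83 and Mmp12 -0.87.

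Genes of the NF-kB response were higher in niche members in part. Of 21 measured, 16 were above 0 and 5 below, with a median of 0.24, against 52.7% of all genes above 0, and 6 were higher beyond 1.5-fold and 0 lower. Tnf, the inflammatory cytokine, had 102 UMIs in 25 niche members (140 CPM) and 8 UMIs in 7 distal members (29.9 CPM), a log2 ratio of 2.15 (1.20 to 3.48), and 1.90 without its top cell. In the other C1q macrophages Tnf was at 34.4 CPM in the niche and 90.8 CPM in the distal library (-1.40). Cxcl1, a neutrophil attractant, had 162 UMIs in 24 niche members (223 CPM) and 24 in 6 distal members (89.6 CPM), a ratio of 1.29 (0.69 to 2.0), against -1.79 in the other macrophages (20.8 and 71.7 CPM). Dusp2, a MAP kinase phosphatase induced on activation, had 117 UMIs in 27 niche members and 7 in 6 distal members (161 and 26.1 CPM, 2.53), against -0.55 in the others. Il1b, interleukin-1 beta, was at 1336 and 664 CPM in members (1.0, 0.78 to 1.25), against 2092 and 2263 CPM in the others. For Tnf, Cxcl1 and Dusp2 the sign was opposite in members and in the other macrophages, a difference that was not itself tested. In those other macrophages 21 of 22 immediate early and stress genes were below 0, 15 lower beyond 1.5-fold (median -0.87), and their part in the opposite signs was not tested. Il12b, with 32 UMIs in 2 niche members and 0 in distal members, was at least 3.93-fold higher in the niche. Il1a, Cd40 and Ccrl2, also past the bound, are uncertain.

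Immediate early and stress genes lay below 0 for 15 of 21 genes in niche members (median -0.26), with 1 lower beyond 1.5-fold and 0 higher. With 4 of the 6 genes required the median was 0.12. Without the members that had 3 monocyte markers, 8 in the niche and 1 in the distal library, Tnf had a ratio of 2.30, Cxcl1 1.61, Dusp2 2.51 and Fabp5 4.02. Spp1 then had 1.36. Plac8, itself a monocyte gene, had 107 UMIs in 16 niche members and 15 UMIs in 1 distal member (1.35).

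The rest of the higher named genes were Med8, Glrx, Mrpl12, Gnl3, Snrpg, Atp5md and the survival gene Bcl2a1d, with log2 ratios of 1.26 to 1.95. With 4 of the 6 genes required Bcl2a1d had 0.80 in place of 1.73 and Glrx 0.68 in place of 1.66. Snrpg, part of the spliceosome, had 279 UMIs in 54 niche members and 36 in 22 distal members (1.5), and in the other macrophages it was also higher in the niche (1.40). Fam89b had 54 UMIs in 34 niche members and 0 in distal members, at least 6.64-fold higher in the niche. It had 3309 UMIs over all kept niche cells and 18 over all kept distal cells, so its difference was not limited to the members. Of the 15 highest named genes 11 had the same direction in the other C1q macrophages, 4 of them beyond 1.5-fold, and of the 15 lowest 14 had it, 11 beyond. Over all genes in those macrophages 48.1% lay above 0 and 1.73% were higher beyond 1.5-fold. Below 0 lay 51.9%, and 3.07% were lower beyond 1.5-fold.

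**Figure D5:**
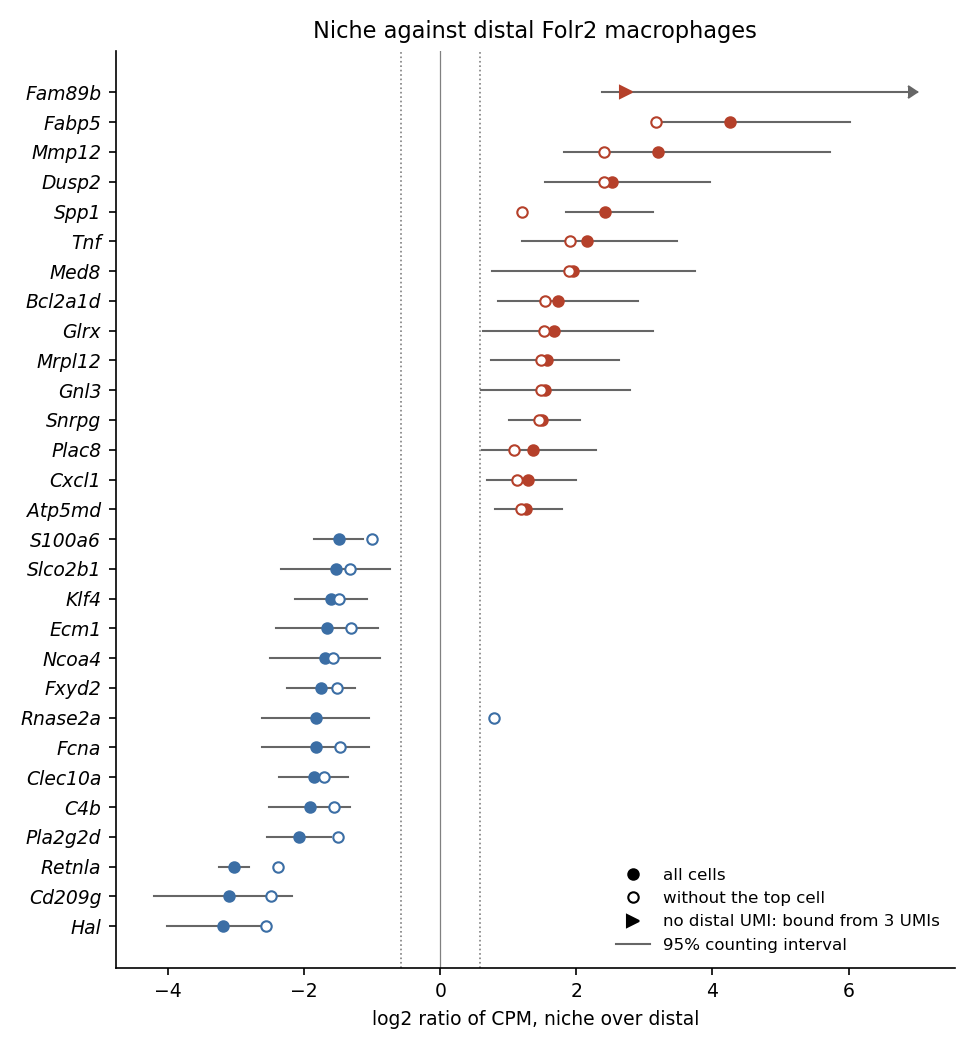
Log2 ratio of CPM in niche over distal Folr2 macrophages for the 15 highest and 14 of the 15 lowest named genes, with 95% counting intervals, filled for all cells and open without the cell that held most UMIs of the gene. Fam89b, with no distal UMI, stands at its bound. Dotted lines mark 1.5-fold. Spp1 falls to 1.19 without 1 cell, and Rnase2a changes side to 0.80.

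Glycolysis genes lay above 0 in niche members, and oxidative phosphorylation genes did so in part. All 14 measured hypoxia and glycolysis genes were above 0 in niche members, with a median of 0.49 (0.22 after thinning), and 2 were beyond 1.5-fold, Gapdh at 1162 and 649 CPM (0.84) and Mif, a cytokine, at 329 and 149 CPM (1.12). Over all genes 52.7% lay above 0 in niche members and 1.74% were higher beyond 1.5-fold. In the other C1q macrophages 19 of 20 hypoxia and glycolysis genes were above 0 (48.1% of all genes were), with a median of 0.55. Of 23 oxidative phosphorylation genes 20 were above and 3 below 0 (median 0.27, and -0.02 after thinning), and 0 were beyond 1.5-fold in either direction.

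Interferon gamma genes differed by less between the member groups. Of 23 measured, 16 were above 0, with a median of 0.11, and 1 was beyond 1.5-fold on either side, Cxcl9 higher and Socs1 lower. In the other C1q macrophages 24 of 25 were above 0 (48.1% of all genes were), 8 higher beyond 1.5-fold (1.73% of all genes were), with a median of 0.54. Cxcl9 was at 2257 CPM in niche members and 537 CPM in distal members (2.07, 1.82 to 2.33), and is uncertain. Of 18 chemokine genes 10 were above and 8 below 0 (median 0.05), with Ccl5, Cxcl1 and Cxcl9 higher and Ccl6 lower beyond 1.5-fold, all uncertain but Cxcl1, which had too few UMIs in unrelated droplets for that check. With 4 of the 6 genes required the median was 0.58. Ccl8 was at 4163 and 4102 CPM (0.02, -0.08 to 0.12), Ccl2 at 1034 and 1123 CPM (-0.12) and Ccl7 at 1420 and 1265 CPM (0.17), and all of these were higher in the niche in unrelated droplets, with median log2 ratios of 7.96 for Ccl8, 3.50 for Ccl2 and 5.62 for Ccl7.

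MHC class II genes had a median of 0.03, with 6 above and 4 below 0, and 0 beyond 1.5-fold. The median was -0.17 after thinning, -0.16 without members that had 3 monocyte markers and -0.27 without uncertain genes. H2-Aa was at 7382 and 9129 CPM (-0.31, -0.38 to -0.24). Hmox1, which degrades haem, was at 359 and 168 CPM (1.08), but 167 of its 261 niche UMIs lay in 1 cell, without which the ratio was -0.36. Of 24 lysosome genes 11 were above and 13 below 0 (median -0.01), with 0 beyond 1.5-fold, and of 17 core interstitial macrophage genes 5 were above and 12 below (median -0.14), with 0 beyond.

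Members varied among themselves along Lyve1, a split made after the values were seen. There were 14 niche and 10 distal members with a Lyve1 UMI, and 43 and 28 without. In both libraries the Lyve1 cells held more of the other perivascular genes. F13a1 was at 474 CPM in Lyve1 members and 114 CPM in members without it in the niche library, and at 1335 and 186 CPM in the distal library. Folr2 itself was at 748 and 289 CPM in the niche library and at 1278 and 362 CPM in the distal library. Fcna (94.8 and 14.9 CPM, then 534 and 27.8 CPM) and Ccl24, an eosinophil attractant (442 and 231, then 839 and 130), went the same way in the niche and then the distal library. Cxcl9 went the other way, at 1217 and 2625 CPM in the niche library and 38.1 and 659 CPM in the distal library. H2-Aa differed by a log2 ratio of -0.15 in the niche and -0.25 in the distal library, and Gpr34 by 0.09 and -0.01. Retnla lay mostly in Lyve1 members, with 216 of 223 niche UMIs, 215 of them in 1 cell, and 631 of 673 distal UMIs. Lyve1 members had a median of 10869.5 UMIs in the niche, against 9101 in members without it, and 5375 in the distal library, against 7692.5.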

How the data were processed

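The authors deposited raw UMI counts for each gene and barcode. Per the file headers they were made with Cell Ranger, version 3.0.2 for the distal and cellranger-6.0.0 for the niche matrix. The submitters' processing notes name GRCm38 and, with no role given, RSEM, Bowtie2, Seurat 4.1.1 and Cell Ranger 3.02. Groups came from the sample titles. The 29413 gene identifiers shared by both matrices were compared, and 442 of them share same-strand exonic bases with a gene of 1 list only (GENCODE, GRCm38). UMI counts were summed over the cells of a group and written as CPM. Log2 ratios had 0.5 UMI added to each sum and exact conditional binomial intervals. The ratio step was tested on simulated Poisson counts of the sums, without variation between cells. That test therefore did not cover genes whose UMIs lie in a few cells. Genes needed at least 20 UMIs, and T, B and neutrophil droplets had fewer than 5 C1q and Ms4a7 UMIs.

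Named genes were the 15 highest and 15 lowest niche over distal ratios with at least 50 UMIs and an interval beyond 1.5-fold, the 20 highest and 15 lowest ratios shared by both libraries over other C1q macrophages, the selecting genes, and the list genes furthest past the bound. Other list genes that are named were chosen after their values were seen. For the niche over distal set, genes linked to differing gene lists were left out. So were genes whose median log2 ratio over unrelated droplet classes was 1 or more in the same direction. A droplet class counted only with at least 20 UMIs of the gene. Genes with no such class could not be checked and were kept. Mitochondrial, ribosomal, haemoglobin, receptor segment and unnamed genes were left out throughout. The members and lists were chosen with earlier results of these data known. Scrublet (scanpy 1.11.5, expected rate 0.03) called 0 niche and 5 distal doublets, 0.0755% of cells, and was taken as not having worked, so doublets were not removed. Alternatives changed depth, rule, scaling, filters and droplets. The scripts ran in Python 3.11.15 with scipy 1.17.1 and numpy 2.4.6 for intervals, pandas 2.3.3, and matplotlib 3.10.9 for figures. Values of 3 further list or named genes are not reported here.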

Additional observations from a re-analysis of the deposited data

How the results depend on the processing

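The share of Folr2 macrophages, niche over distal, had the same side under 10 alternatives over all kept cells, with ratios of 1.30 to 2.11, of which 1.30 (thinned to 3000 UMIs), 1.34 (without mixed droplets) and 1.52 (without members with 3 monocyte markers) had intervals that held 1. Among the 10, the C1q minimum of 20 UMIs left 57 niche and 37 distal members. Leaving out the highest 5% of Scrublet scores left 56 and 37, by scores taken as not having worked. Both hardly changed the members and add little to that count. The share had the other side over C1q macrophages, at 0.320, and at 0.291 after thinning. The 156 genes beyond 1.5-fold between niche and distal members became 39 after thinning, 88 with 4 of 6 genes, 99 with at least 50 UMIs and 82 without uncertain genes. Against other C1q macrophages 532 genes became 334 in the niche and 402 became 198 in the distal library after thinning, which leaves fewer UMIs. Medians that changed sign by more than the typical half-width of their genes' counting intervals were those of MHC class II, niche over distal (-0.17 thinned, -0.16 without members with 3 monocyte markers, -0.27 without uncertain genes), of immediate early genes, niche over distal (0.12 with 4 of 6 genes), of NF-kB genes in niche members over others (-0.070 without mixed droplets) and of lipid-associated genes in members over others (0.19 with 4 of 6 genes in the niche, 0.34 thinned and 0.42 with at least 50 UMIs in the distal library). Other medians changed sign by less than that. For niche over distal members these were growth and matrix ligands (0.03 as reported, lowest -0.43 thinned), oxidative phosphorylation (-0.02 thinned), interferon gamma genes (-0.07 thinned), type I interferon genes (-0.12 without members with 3 monocyte markers, -0.11 without uncertain genes), immune regulation (0.20 thinned), lipid-associated genes (0.18 without uncertain genes), scavenger receptors (0.02 without members with 3 monocyte markers), chemokines (-0.09 without uncertain genes), transcription factors (-0.11 with 4 of 6 genes), lysosome genes (0.05 thinned) and MHC class II under 4 further alternatives (lowest -0.08). For members over others they were type I interferon genes (0.05 with 4 of 6 genes), B cell markers (-0.67 thinned) and endothelial and stromal markers (0.36 without mixed droplets) in the niche library, and scavenger receptors (0.25 with 4 of 6 genes), lysosome genes (-0.16 thinned), immune regulation (-0.03 thinned) and lipid-associated genes (0.18 with 4 of 6 genes) in the distal library. Single genes that changed sign were S100a6 (0.46), Rnase2a (0.80), S100a9 (0.90 in the niche and 0.99 in the distal library) and S100a8 (0.028). S100a9 and S100a8 are among the markers of the droplet filter under which they changed. The cause of these changes was not tested. Leaving out top cells or monocyte-marker members, thinning within C1q macrophages and the mean over cells were chosen after seeing the data. No paired analysis was possible because each group is 1 library, and for the same reason no replicate could be left out. Over all genes, those under 20 UMIs over both groups were not compared at this depth.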
